A study of Rattus norvegicus with 8 samples.

Results

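The cytokine genes Il6, Lif, Il11, Tnf and Csf1 and the signalling inhibitor gene Socs3 were followed in rat aortic smooth muscle cells through every probe set annotated to one of these 6 genes alone. A probe set is a group of short array probes summarised to 1 value per array. The 6 genes had 10 probe sets among 31042 that are not controls, with 1 each for Il6, Lif, Il11 and Socs3, 2 for Tnf and 4 for Csf1. They were chosen by gene symbol, with no threshold on their values, but with earlier results of these data known.

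Male Sprague-Dawley rats gave the thoracic aorta from which vascular smooth muscle cells were released with enzymes. The cells grew in M199 medium with 10% serum and were used after 2 passages. They received siRNA for 48 h and then treatment for 3 h, in 4 groups of 2 arrays: non-targeting control siRNA (siNTC) with phosphate-buffered saline (PBS), siNTC with 100 nM angiotensin II (Ang II), siRNA against Giver (siGiver) with PBS, and siGiver with 100 nM Ang II. All groups therefore carry an siRNA. The siRNA target Giver is a long non-coding RNA, and its own level was not analysed here, so the knockdown behind every siGiver value was not checked. No label tells whether both arrays in a group represent separate cultures or animals. The p-values therefore reflect the spread among these 8 arrays alone, and that spread may be technical.

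Interleukin 6 (Il6), leukaemia inhibitory factor (Lif) and interleukin 11 (Il11) are secreted cytokines that signal through gp130, the shared receptor subunit encoded by Il6st, which activates JAK kinases and the transcription factor STAT3. Socs3 is induced by STAT3 and blocks gp130 signalling. Tumour necrosis factor (Tnf) acts through its receptors on NF-kB, and colony stimulating factor 1 (Csf1) sustains monocytes and macrophages. Ang II is a vasoconstrictor peptide and is known to raise inflammatory transcripts in smooth muscle cells, Il6 among them.

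Values are deposited log2 signals, which can be compared between arrays for 1 probe set but not between probe sets. All 8 smooth muscle marker genes checked, Acta2 and Myh11 among them, lay above the low-signal filter of 4.81 log2 (the 30th percentile of probe set means). The 5 endothelial markers with a probe set (Pecam1, Kdr, Vwf, Tek and Cldn5) lay below it, as did Ptprc, Adgre1, Csf1r and Itgam among 8 macrophage markers and Cd3e, Cd3d and Cd3g among 4 T cell markers. The mean log2 signal over the 8 macrophage markers lay between 4.87 and 4.94 in siNTC PBS, 4.94 and 4.94 in siNTC Ang II, 4.95 and 4.99 in siGiver PBS, and 4.76 and 4.86 in siGiver Ang II arrays. Cd14 was lower in siGiver than siNTC cells with Ang II, at -0.45 log2 (adjusted p = 0.000927), as was Cd68 at -0.60 (adjusted p = 0.0484). Cd68 read 5.16 and 5.45 on the siNTC Ang II arrays and 4.38 and 5.04 on the siGiver Ang II arrays. Its difference therefore rests largely on 1 array that lies below the filter value. The mean over the 8 smooth muscle markers was 10.6 to 10.7 on the siNTC arrays and at least 10.9 on the siGiver arrays. Of the 8, 5 were higher and 1 lower in siGiver than siNTC cells with PBS, and 6 higher and 1 lower with Ang II. Over all genes, 13.9% were higher and 16.6% lower with PBS, and 17.9% and 22.2% with Ang II. With Ang II against PBS, 1 smooth muscle marker was lower in siNTC cells and 2 were higher in siGiver cells. The mean over 5 fibroblast markers, all above the filter, was 10.1 on the siNTC PBS arrays, 9.85 to 9.89 on the siNTC Ang II arrays, 10.2 on the siGiver PBS arrays and 10.0 on the siGiver Ang II arrays. Of these 5, Pdgfra and Dcn fell with Ang II in siNTC cells and Pdgfra in siGiver cells. Dcn, Lum and Col1a1 were higher in siGiver than siNTC cells with Ang II, with a higher interaction for Dcn. Among 4 tested macrophage markers, 1 had a lower interaction. Over all genes, 2.83% rose and 1.17% fell with Ang II in siNTC cells, and 7.51% rose and 5.12% fell in siGiver cells. The interaction was called higher for 2.17% of all genes and lower for 1.74%. The part of these marker lists in the member results was not tested. In these bulk samples, fewer cells of a type and less RNA per cell cannot be told apart. All 10 member probe sets passed the filter. The mean of Lif, 4.87, was the nearest to it. Lif, Socs3 (5.21), Il11 (5.61), Tnf 1391384_at (5.57) and Tnf 1387691_at (5.99) all lay below the 50th percentile of probe set means, 6.17 log2.

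The 4 simple comparisons are Ang II minus PBS within each siRNA arm and siGiver minus siNTC within each treatment, and the interaction subtracts the Ang II difference of siNTC cells from that of siGiver cells. They share arrays, so their values stand side by side without being independent of one another. A probe set counts as changed at a Benjamini-Hochberg adjusted p under 0.05 in limma, over all 21729 probe sets that passed the filter. Among the 10 member probe sets, 2 rose with Ang II in siNTC cells, where 3.92% of all probe sets changed (2.32% higher and 1.6% lower). Also 2 rose in siGiver cells, where 12.7% changed (7.98% higher and 4.74% lower). In the siRNA comparisons, 3 member probe sets were lower in siGiver than siNTC cells with PBS, where 27.8% of all probe sets differed (12.3% higher and 15.5% lower), and 5 were lower with Ang II, where 35.7% differed (17.1% higher and 18.6% lower). None of the 10 passed for the interaction, where limma called 3.36% of all probe sets (2.03% higher and 1.33% lower) and, at 1 probe set per gene, 2.17% of genes higher and 1.74% lower, and 1 of the 10, Tnf 1391384_at, had an unadjusted p under 0.05. The median difference over the 10 probe sets was 0.18 log2 for Ang II in siNTC cells and 0.21 in siGiver cells, against -0.0016 and -0.018 over all probe sets. For the siRNA it was -0.12 with PBS and -0.15 with Ang II, against -0.0029 and -0.014. The members and the pathway lists below were chosen with earlier results of these data known. Their counts and medians beside those of all probe sets or genes are therefore descriptions and not tests.

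**Figure D1:**
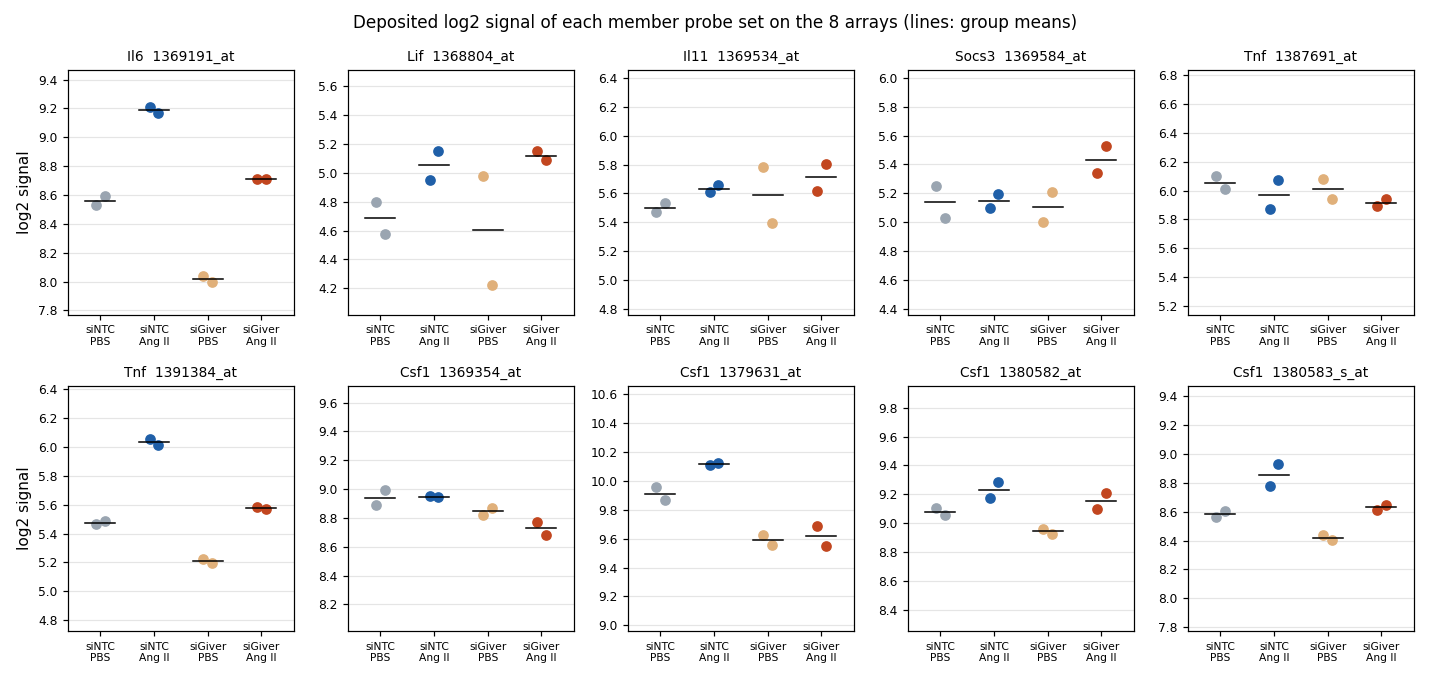
Deposited log2 signal (y axis, each panel spanning the same number of log2 units) of the 10 member probe sets on the 8 arrays, grouped by siRNA and treatment (x axis); points are arrays and lines are group means (n = 2). Il6 and Tnf 1391384_at show the same order of groups, highest in siNTC Ang II and lowest in siGiver PBS, while Tnf 1387691_at stays between 5.87 and 6.10 on all 8 arrays.

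Il6 changed in all 4 simple comparisons. Its signal was 8.53 and 8.59 on the siNTC PBS arrays and 9.21 and 9.17 on the siNTC Ang II arrays. It was 8.04 and 7.996 on the siGiver PBS arrays and 8.71 and 8.71 on the siGiver Ang II arrays. No 2 groups overlapped: the order from the top was siNTC Ang II, siGiver Ang II, siNTC PBS, siGiver PBS. The share of all probe sets whose 4 groups all separate was not counted. Non-overlap alone is common with 2 arrays a group, and held for 52.1% of all probe sets for Ang II in siNTC cells, 59.4% for Ang II in siGiver cells, 63.8% for the siRNA with PBS and 68.1% for the siRNA with Ang II.

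With Ang II, Il6 rose by 0.63 ± 0.050 log2 (SE of the fit, 2 arrays per group), or 1.55-fold, in siNTC cells (adjusted p = 0.00116), which ranked 103 from the top of 21729 probe sets. In siGiver cells Il6 rose by 0.69 ± 0.050, or 1.62-fold (adjusted p = 0.000244), ranking 236 from the top. The rises differed by 0.065 log2, with a 95% interval from -0.10 to 0.23 (adjusted p = 0.673 for the interaction). A difference in the response to Ang II was therefore not detected, and the interval leaves room for one of up to 0.23 log2.

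Il6 was lower in siGiver than in siNTC cells with either treatment. The difference was -0.54 ± 0.050 log2 with PBS (1.46-fold lower, adjusted p = 0.000412) and -0.48 ± 0.050 with Ang II (1.39-fold lower, adjusted p = 0.00041). It ranked 558 from the bottom with PBS and 1052 from the bottom with Ang II, among probe sets of which 15.5% and 18.6% were called lower. The neighbours in the middle of the order, siGiver Ang II and siNTC PBS, differed by 0.15 ± 0.050 (adjusted p = 0.0493), in a comparison chosen after the levels were seen in which 38.7% of all probe sets were called (18.5% higher and 20.2% lower) and 69.2% did not overlap. That call was lost when any 1 array was left out (adjusted p from 0.0662 to 0.184) and ranged from an adjusted p of 0.0247 to 0.103 under the other settings. The Il6 calls for Ang II and for the siRNA held under every setting tried and without any 1 array.

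A 5S ribosomal RNA control on the array had its highest and lowest groups in common with Il6. Its mean was 8.20 ± 0.067 (SD, n = 2) in siNTC PBS, 8.90 ± 0.032 in siNTC Ang II, 7.63 ± 0.010 in siGiver PBS and 7.74 ± 0.037 in siGiver Ang II arrays. Across the 8 arrays, which fall in 4 groups, its Pearson r was 0.84 with Il6, 0.89 with Tnf 1391384_at and 0.95 with Csf1 1379631_at. It was 0.86 with Csf1 1380583_s_at and 0.69 with each of Csf1 1369354_at and 1380582_at. For Lif, Tnf 1387691_at, Il11 and Socs3 it was 0.27, 0.049, -0.051 and -0.28. The mean of 12 probe sets for spiked poly-A controls stood highest in siGiver PBS, at 8.61 on both arrays, against 7.93 to 8.27 on the other arrays. Their part in the member results was not tested either.

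The RefSeq sequence before the start of Il6 is shown because Il6 passed in all 4 simple comparisons, with that of Tnf, whose probe sets disagree, and of Il11, which did not pass. Each is the 250 bases before the RefSeq start site, read 5′ to 3′ on the strand of the gene in build GRCr8. Il6 lies on the minus strand (chr4:5894576-5894825), Tnf on the plus strand (chr20:3626435-3626684) and Il11 on the plus strand (chr1:78098372-78098621). Capitals mark matches to any of 5 motifs on either strand: the NF-kB consensus, STAT (TTCNNNGAA), AP-1 (TGANTCA), the cyclic AMP response element CRE (TGACGTCA) and C/EBP (TTGCNNAA).
Il6: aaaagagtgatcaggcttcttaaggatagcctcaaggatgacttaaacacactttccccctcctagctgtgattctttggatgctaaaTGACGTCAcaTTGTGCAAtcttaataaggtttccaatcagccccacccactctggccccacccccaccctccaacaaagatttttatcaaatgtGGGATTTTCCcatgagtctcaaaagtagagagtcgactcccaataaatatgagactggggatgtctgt
Tnf: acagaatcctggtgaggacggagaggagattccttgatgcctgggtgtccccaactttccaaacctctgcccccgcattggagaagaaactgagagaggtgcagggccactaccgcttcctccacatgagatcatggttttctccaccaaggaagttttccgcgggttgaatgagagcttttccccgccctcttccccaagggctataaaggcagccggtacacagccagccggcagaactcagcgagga
Il11: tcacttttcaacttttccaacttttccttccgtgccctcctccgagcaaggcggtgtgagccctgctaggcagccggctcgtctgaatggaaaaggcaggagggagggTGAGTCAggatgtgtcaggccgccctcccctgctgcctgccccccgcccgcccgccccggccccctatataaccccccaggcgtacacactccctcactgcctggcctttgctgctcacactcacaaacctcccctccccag

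In the Il6 window the CRE letters lie at -162 to -155 from the start, a C/EBP match, read on the opposite strand, at -152 to -145 and an NF-kB match at -68 to -59, with no overlap between them. Of 33469 RefSeq promoter windows of this length, 1.59% held the CRE letters, 9.22% a C/EBP match and 6.33% an NF-kB match. The Il11 window held 1 AP-1 match at -142 to -136, as did 6.34% of all windows. The Tnf window held none of the 5 motifs, and that of Socs3 held 1 NF-kB match. STAT letters were in 7.67% of all windows and in none of these 4. Lif and Csf1 had no entry. A match is only a description of the letters.

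**Figure D2:**
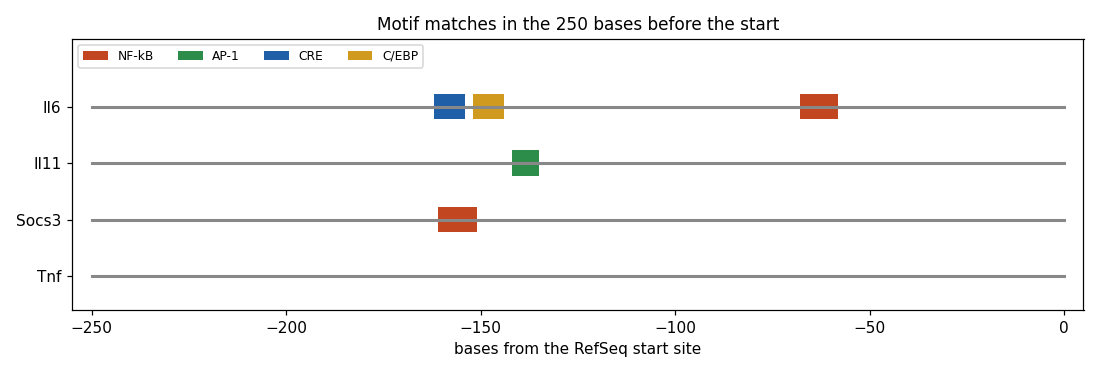
Positions of motif matches (coloured blocks) in the 250 bases before the RefSeq start of Il6, Il11, Socs3 and Tnf; the x axis gives bases from the start. The Il6 window carries 3 matches, Il11 and Socs3 carry 1 each and Tnf carries none.

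Lif and Il11, the other gp130 cytokines among the members, passed in no comparison of the main fit. Lif read 4.80 and 4.58 in siNTC PBS, 4.95 and 5.15 in siNTC Ang II, 4.98 and 4.22 in siGiver PBS, and 5.15 and 5.09 in siGiver Ang II arrays. Both Ang II groups lay above their PBS groups, but the siGiver PBS arrays alone spanned 0.76 log2. Ang II and PBS arrays did not overlap, in either direction, for 52.1% of all probe sets in siNTC cells and 59.4% in siGiver cells. The Ang II difference was 0.36 ± 0.22 in siNTC cells (adjusted p = 0.39) and 0.52 ± 0.22 in siGiver cells (adjusted p = 0.165). Without siGiver PBS replicate 1 the latter was 0.90 and passed (adjusted p = 0.0136), as did the siRNA difference with PBS at -0.47 (adjusted p = 0.0451). Il11 lay between 5.39 and 5.80 on all 8 arrays, with differences from -0.0065 to 0.13 log2 and adjusted p-values of 0.548 or more in the 5 comparisons.

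Of 6 further IL-6 family ligands listed, 3 were tested (Cntf, Ctf1 and Clcf1), Osm was below the filter and Il27 and Il31 had no probe set of their own. Clcf1, a ligand of the ciliary neurotrophic factor receptor, read 5.45 and 5.45 in siNTC PBS, 5.52 and 5.54 in siNTC Ang II, 5.30 and 5.36 in siGiver PBS, and 6.74 and 6.31 in siGiver Ang II arrays. The siGiver Ang II arrays stood apart from the other 6, and the share of all probe sets that separate this way was not counted. With Ang II, Clcf1 was higher in siGiver than siNTC cells by 0.999 ± 0.12 (adjusted p = 0.000811). Clcf1 rose with Ang II by 1.19 ± 0.12 (2.29-fold) in siGiver cells, stood at 0.080 ± 0.12 in siNTC cells and had an interaction of 1.11 ± 0.17 (adjusted p = 0.0197). That interaction was lost when any siNTC array or either siGiver PBS array was left out (adjusted p up to 0.0801). Ctf1, encoding cardiotrophin 1, was higher in siGiver cells by 0.39 ± 0.071 with PBS (adjusted p = 0.0066) and 0.33 ± 0.071 with Ang II (adjusted p = 0.0102). The latter was lost without siNTC Ang II replicate 1 or siGiver Ang II replicate 1.

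**Figure D3:**
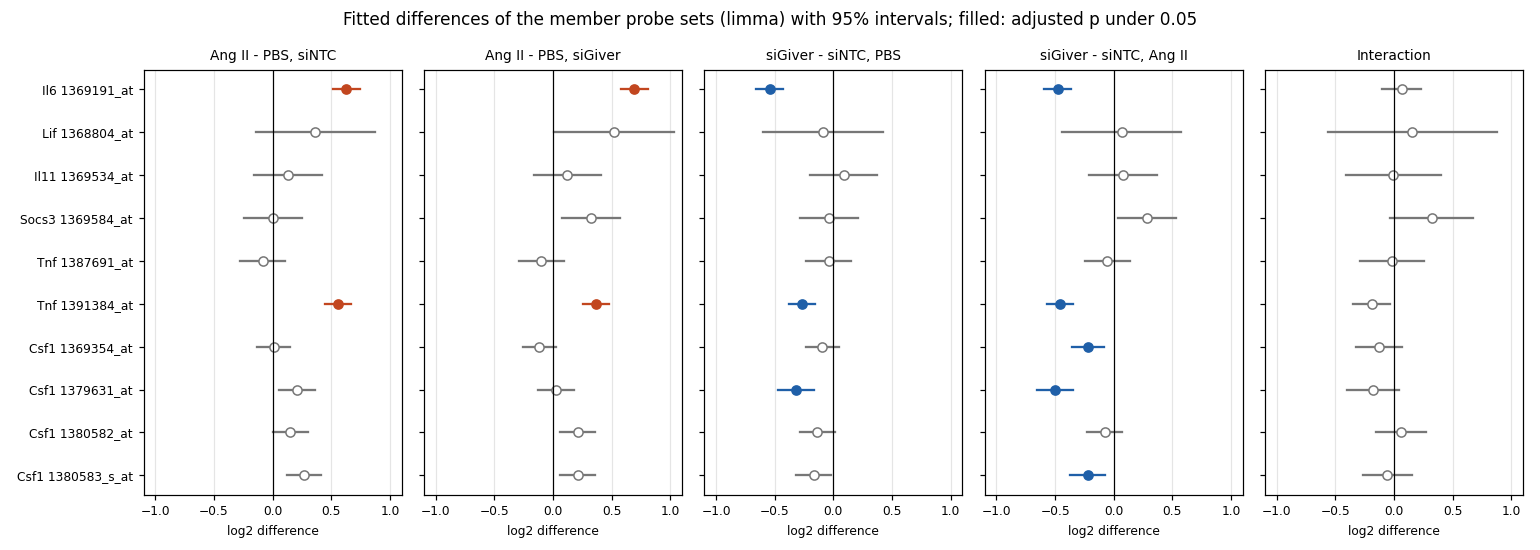
Fitted log2 differences (x axis) of the 10 member probe sets (rows) in the 5 comparisons (panels), with 95% intervals of the limma fit to 8 arrays; filled points have an adjusted p under 0.05. Il6 and Tnf 1391384_at are filled in all 4 simple comparisons, and no probe set is filled for the interaction.

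None of 6 tested IL-6 family receptor genes passed with Ang II in either arm by limma (0 in siNTC and 2 in siGiver cells had an unadjusted p under 0.05), where 2.83% of all genes rose and 1.17% fell in siNTC cells, and 7.51% rose and 5.12% fell in siGiver cells. Il6st has 4 probe sets and Lifr 2, and only the brightest of each is given. By that probe set Il6st was higher in siGiver than siNTC cells, the opposite direction to Il6. The difference was 0.26 ± 0.051 with PBS (adjusted p = 0.00827) and 0.32 ± 0.051 with Ang II (adjusted p = 0.00244). Il6r, the ligand-binding subunit for Il6, was higher in siGiver than siNTC cells with Ang II, by 0.25 ± 0.077 (adjusted p = 0.0394). That call was lost without any 1 of the 4 Ang II arrays, without the filter and with trended, robust moderation. Lifr ranged from -0.17 to 0.14 and Il11ra1 from -0.012 to 0.040 in the simple comparisons, and neither passed. No receptor gene was called lower in siGiver cells in the main fit, and up to 1 was under the other settings with either treatment. Those settings include counting any probe set of a gene, and the direction of Il6st given here rests on its brightest probe set alone. Higher calls took 13.9% of all genes with PBS and 17.9% with Ang II, and lower calls 16.6% and 22.2%.

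Socs3 did not pass in any comparison of the main fit. It read 5.25 and 5.03 in siNTC PBS, 5.10 and 5.19 in siNTC Ang II, 5.00 and 5.21 in siGiver PBS, and 5.34 and 5.53 in siGiver Ang II arrays. The siGiver Ang II arrays were the highest 2 of the 8, and the share of all probe sets with this order was not counted. With Ang II it stood at 0.0055 ± 0.11 in siNTC cells (95% interval -0.24 to 0.25) and at 0.33 ± 0.11 in siGiver cells (0.077 to 0.57, adjusted p = 0.0901). The siRNA difference with Ang II was 0.29 ± 0.11 (adjusted p = 0.075).

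Among 17 listed JAK-STAT kinases, transducers and inhibitors, 15 were tested. By limma none passed with Ang II in siNTC cells, where 1 had an unadjusted p under 0.05 (median 0.0097 log2, against 0.0058 over all genes), and 3 rose and 1 fell in siGiver cells (median 0.063, against -0.028). Socs5 and Socs6, of the same inhibitor family as Socs3, rose in siGiver cells by 0.66 ± 0.059 (adjusted p = 0.000687) and 0.30 ± 0.061 (adjusted p = 0.0207), as did Cish by 0.28 ± 0.074 (adjusted p = 0.0495). Pias3, an inhibitor of STAT3, fell there by 0.44 on the log2 scale (adjusted p = 0.00237). Cish lost its call without any 1 array of siNTC PBS or siGiver cells, without the filter and with only the groups compared in the fit. Socs6 lost it without either siGiver PBS array or siGiver Ang II replicate 2, and with only the groups compared. Between the siRNA arms, 2 were higher and 3 lower with PBS, and 4 higher and 3 lower with Ang II. Under the other settings the lower counts were 2 to 3 with PBS and 2 to 4 with Ang II. Both lower counts fell when some arrays were left out. Over all genes, 13.9% were higher and 16.6% lower with PBS, and 17.9% and 22.2% with Ang II. For Ang II itself, 2.83% of all genes rose and 1.17% fell in siNTC cells, and 7.51% rose and 5.12% fell in siGiver cells. Socs7 (0.40 and 0.55) and Stat5b (0.49 and 0.50) were higher with PBS and with Ang II, and the kinase gene Tyk2 was lower (-0.32 and -0.52). With Ang II, Socs5 was also higher in siGiver cells (0.69) and Pias3 lower (-0.53). Ptpn6, a phosphatase gene, was lower with PBS (-0.27), a call lost with trended, robust moderation. The Tyk2 call with PBS was lost without siNTC PBS replicate 2 or siGiver PBS replicate 1.

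Genes known to respond to STAT3 rose in 4 of 14 in siNTC cells (median 0.15, against 0.0058 over all genes) and in 8 of 14 in siGiver cells (median 0.35, against -0.028). Over all genes, 2.83% rose in siNTC cells and 7.51% in siGiver cells. The 4 in siNTC cells were Junb (0.61), Cebpd (0.36), Cebpb (0.32) and Icam1 (0.28). The 4 with the smallest adjusted p in siGiver cells were Junb (1.49), Myc (0.66), Cebpd (0.65) and Icam1 (0.56). Many of these genes also respond to other signals. In siNTC cells the Cebpb, Cebpd and Icam1 calls were lost when any 1 siNTC array was left out, Icam1 also without either siGiver PBS array, and Junb without siNTC PBS replicate 1 or siNTC Ang II replicate 2, and the count of 4 was 0 to 4 with 1 array left out and 2 to 5 under the other settings. It was 2 without the filter and with only the groups compared. Between the arms, 3 were higher and 6 lower with PBS, and 7 higher and 2 lower with Ang II. Over all genes, 13.9% were higher and 16.6% lower with PBS, and 17.9% and 22.2% with Ang II. The 6 became 4 without siNTC PBS replicate 2, and Junb, lower with PBS, was lost without siNTC PBS replicate 2 or siGiver PBS replicate 2. The 2 became 1 without siNTC Ang II replicate 1 or siGiver Ang II replicate 1, either of which lost Cebpb, and 3 without siNTC Ang II replicate 2 or under some other settings. Lbp, encoding the lipopolysaccharide binding protein, was lower in siGiver cells with both treatments (-0.63 and -0.60), while Myc was higher (0.45 and 1.06). With PBS, Cebpd was lower (-0.37) and Vegfa higher (0.33) in siGiver cells. With Ang II, Icam1 (0.53) and Mcl1 (0.49) were higher there.

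Tnf was measured by 2 probe sets that disagree. Probe set 1391384_at read 5.47 and 5.49 in siNTC PBS, 6.05 and 6.02 in siNTC Ang II, 5.22 and 5.20 in siGiver PBS, and 5.58 and 5.57 in siGiver Ang II arrays. Its 4 groups did not overlap and stood in the same order as those of Il6. How many of all probe sets have 4 groups that separate was not counted. Between 2 groups, 52.1% to 69.2% of all probe sets did not overlap in the pairs counted. Probe set 1387691_at read 6.10 and 6.01 in siNTC PBS, 5.87 and 6.07 in siNTC Ang II, 6.08 and 5.94 in siGiver PBS, and 5.89 and 5.94 in siGiver Ang II arrays. Here the siGiver Ang II arrays lay below the PBS arrays of both arms, and the other groups overlapped. Over the 8 arrays the 2 probe sets correlated at r = -0.25.

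By 1391384_at, Tnf rose with Ang II by 0.56 ± 0.048 (1.47-fold, adjusted p = 0.0016) in siNTC cells and 0.37 ± 0.048 (1.29-fold, adjusted p = 0.00361) in siGiver cells. The interaction was -0.19 ± 0.067, with a 95% interval from -0.35 to -0.035, and did not pass over all probe sets (adjusted p = 0.183). The siRNA difference was -0.27 ± 0.048 with PBS (1.203-fold lower, adjusted p = 0.00568) and -0.46 ± 0.048 with Ang II (1.37-fold lower, adjusted p = 0.000387). The call with PBS was lost with trended, robust moderation (adjusted p = 0.0543). The groups siGiver Ang II and siNTC PBS, next to each other in the order, differed by 0.0997 ± 0.048 and did not pass (adjusted p = 0.141). By 1387691_at the differences were -0.083, -0.099, -0.041 and -0.056 in the same 4 comparisons, each with an SE of 0.082 and an adjusted p of 0.466 or more. For Ang II in siNTC cells its 95% interval, -0.28 to 0.11, lies below that of 1391384_at, 0.45 to 0.67. The annotation gives no transcript accession for 1391384_at, and the probe sequences were not used here, so a statement on Tnf depends on which probe set is taken.

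**Figure D4:**
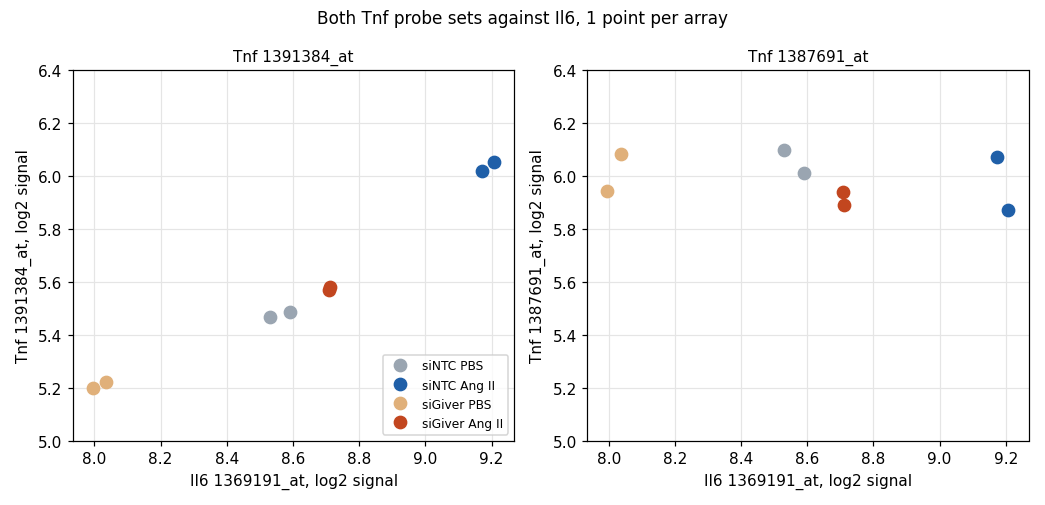
Log2 signal of Tnf by probe set 1391384_at (left) and 1387691_at (right) on the y axis against Il6 on the x axis, 1 point per array, coloured by group. Values of 1391384_at climb with those of Il6 across the 4 groups (r = 0.98 over 8 arrays), and those of 1387691_at do not.

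Of 13 listed TNF receptor, adaptor and processing genes, 10 were tested, and Tnfrsf1b, Lta and Ltb were below the filter. Cflar, an inhibitor of caspase 8 activation, was the 1 gene that rose in siNTC cells (0.37 ± 0.074, adjusted p = 0.039), and its call was lost when any 1 of the 8 arrays was left out, without the filter and with only the groups compared. In siGiver cells 3 rose and 1 fell: Cflar (0.62 ± 0.074), the main receptor gene Tnfrsf1a (0.30 ± 0.052), the apoptosis inhibitor gene Birc3 (0.22 ± 0.049) and, lower, the adaptor gene Tradd (-0.20 ± 0.049). The last 3 were lost without any 1 siGiver array, and Tradd also without any 1 siNTC array and with array medians subtracted. Birc3 and Tradd were also lost without the filter and with only the groups compared. Over all genes, 2.83% rose in siNTC cells, and 7.51% rose and 5.12% fell in siGiver cells. Adam17, which encodes the protease that releases TNF from the cell surface, was lower in siGiver cells by -0.30 ± 0.052 with PBS and -0.33 ± 0.052 with Ang II (adjusted p = 0.00543 and 0.00248). Tradd was lower too (-0.21 and -0.33, the first lost without siNTC PBS replicate 2 or either siGiver PBS array), and Tnfrsf1a was higher with Ang II (0.26 ± 0.052).

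NF-kB subunits and genes known to respond to TNF rose in 5 of 11 in siNTC cells (median 0.21, against 0.0058 over all genes) and 9 of 11 in siGiver cells (median 0.43, against -0.028). Over all genes, 2.83% rose in siNTC cells and 7.51% in siGiver cells. Zfp36, whose product destabilises Tnf and other cytokine mRNAs, rose by 0.67 ± 0.055 in siNTC and 1.16 ± 0.055 in siGiver cells. Tnfaip6, a secreted hyaluronan-binding protein, rose by 0.52 ± 0.064 and 1.30 ± 0.064, and Tnfaip2 by 0.33 ± 0.053 and 0.70 ± 0.053. Tnfaip3, an inhibitor of NF-kB, rose in siGiver cells by 0.74 ± 0.049 (0.12 in siNTC cells, which did not pass). The chemokine gene Ccl2 rose by 0.28 ± 0.050 in siNTC cells, and like Tnfaip2 it lost this call when any 1 siNTC array was left out, without the filter and with only the groups compared. Tnfaip6 lost its call in siNTC cells without siNTC PBS replicate 1 or either siNTC Ang II array. With 1 array left out the count in siNTC cells was 1 to 4, and that in siGiver cells 7 to 9. Under the other settings the count in siNTC cells was 2 to 9, the lowest without the filter and with only the groups compared and the highest with trended, robust moderation. With PBS, 5 of the 11 were lower in siGiver cells (3 to 5 with 1 array left out), with Tnfaip6 at -1.39 ± 0.064 (2.62-fold lower), Ccl2 at -0.36, Nfkb1 at -0.30 and Vcam1 at -0.23, the last lost without siNTC PBS replicate 1 or siGiver PBS replicate 1. The fifth, Tnfaip3 at -0.23, was lost without siGiver PBS replicate 1, which left 3. None of the 11 was higher by limma (6 had an unadjusted p under 0.05 in either direction), and 1 was where any probe set of a gene counted. With Ang II, 4 were higher and 4 lower, with Tnfaip6 still lower at -0.61 ± 0.064 and Zfp36 (0.41), Tnfaip2 (0.40) and Tnfaip3 (0.39) higher. Over all genes, 13.9% were higher and 16.6% lower in siGiver cells with PBS, and 17.9% and 22.2% with Ang II.

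**Figure D5:**
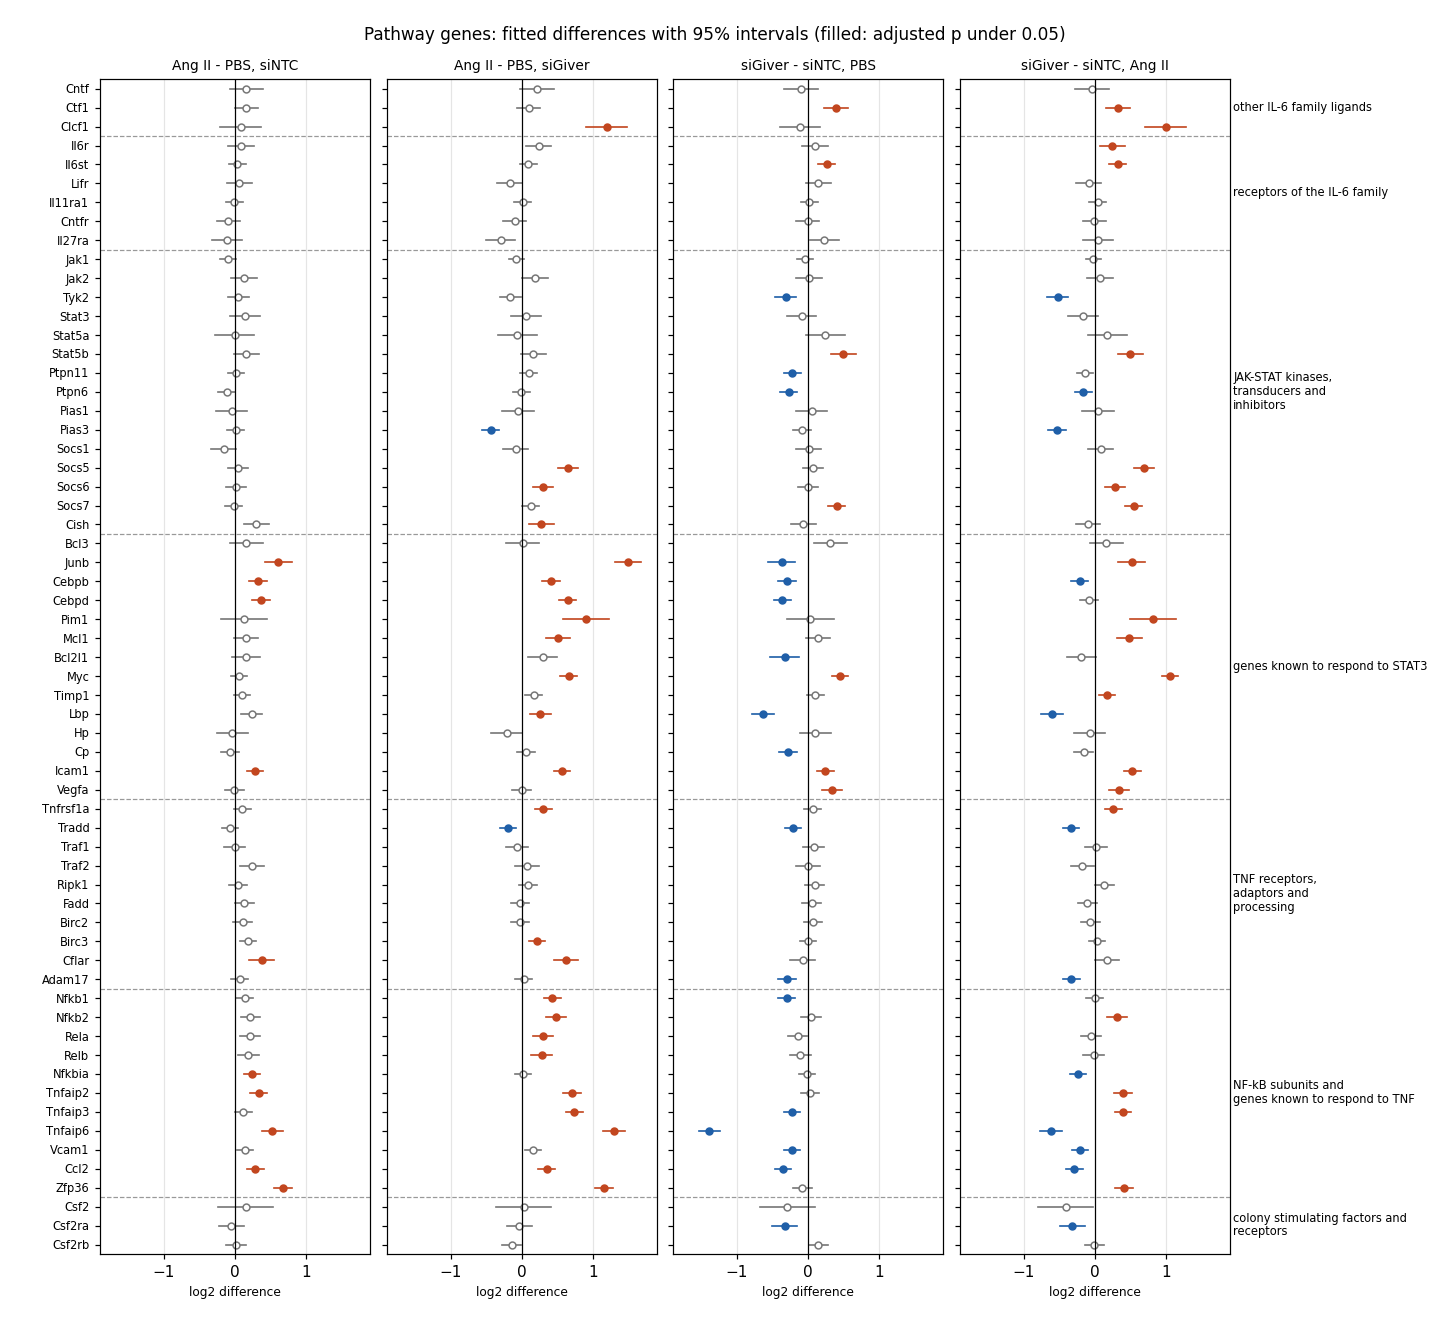
Fitted log2 differences (x axis) with 95% intervals for the 62 tested genes of the 7 pathway lists (rows, dashed lines between lists), in the 4 simple comparisons (panels); filled points have an adjusted p under 0.05. Receptors of the IL-6 family have no filled point in either Ang II panel, whereas 9 of 11 NF-kB and TNF response genes are filled in siGiver cells.

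Csf1 had 4 probe sets. Probe set 1379631_at read 9.96 and 9.87 in siNTC PBS, 10.11 and 10.13 in siNTC Ang II, 9.63 and 9.56 in siGiver PBS, and 9.69 and 9.55 in siGiver Ang II arrays. Every siGiver array was below every siNTC array, and the siGiver groups overlapped each other. The share of all probe sets that separate this way was not counted. Within a treatment, the arms did not overlap for 63.8% of all probe sets with PBS and 68.1% with Ang II. The siRNA difference of 1379631_at was -0.32 ± 0.066 with PBS (1.25-fold lower, adjusted p = 0.0106) and -0.50 ± 0.066 with Ang II (1.41-fold lower, adjusted p = 0.00114). The call with PBS was lost without siNTC PBS replicate 1 (adjusted p = 0.0618) or siGiver PBS replicate 2 (adjusted p = 0.0603). The call with Ang II held without any 1 array.

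The other Csf1 probe sets gave smaller siRNA differences in the same direction. Probe set 1369354_at read 8.89 and 8.99 in siNTC PBS, 8.95 and 8.95 in siNTC Ang II, 8.82 and 8.87 in siGiver PBS, and 8.77 and 8.68 in siGiver Ang II arrays. Its siRNA difference was -0.094 ± 0.059 with PBS and -0.22 ± 0.059 with Ang II (adjusted p = 0.0243). Probe set 1380583_s_at read 8.57 and 8.61 in siNTC PBS, 8.78 and 8.93 in siNTC Ang II, 8.44 and 8.40 in siGiver PBS, and 8.62 and 8.65 in siGiver Ang II arrays. In both probe sets the siGiver arrays lay below the siNTC arrays of the same treatment. Such a lack of overlap held, in either direction, for 63.8% of all probe sets with PBS and 68.1% with Ang II. Probe set 1380583_s_at stood at -0.17 ± 0.064 with PBS and -0.22 ± 0.064 with Ang II (adjusted p = 0.0294), and 1380582_at at -0.14 ± 0.064 and -0.077 ± 0.064, neither of which passed. Both calls with Ang II were lost without the filter (adjusted p = 0.0515 for 1369354_at and 0.0592 for 1380583_s_at). The first was also lost without either siNTC Ang II array or siGiver Ang II replicate 2, and the second without siNTC Ang II replicate 2 or either siGiver Ang II array.

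With Ang II, no Csf1 probe set passed in either arm. The differences in siNTC cells were 0.0086, 0.21, 0.15 and 0.27 log2 for 1369354_at, 1379631_at, 1380582_at and 1380583_s_at, and in siGiver cells -0.12, 0.027, 0.21 and 0.21. With a filter at the 50th percentile, 1380583_s_at passed in siNTC cells (adjusted p = 0.0295) and in siGiver cells (adjusted p = 0.037), and 1380582_at in siGiver cells (adjusted p = 0.0388). With trended, robust moderation 1379631_at (adjusted p = 0.0167) and 1380583_s_at (adjusted p = 0.00624) passed in siNTC cells, and 1380582_at (adjusted p = 0.0119) and 1380583_s_at (adjusted p = 0.0166) in siGiver cells. Probe sets 1380582_at and 1380583_s_at are annotated to the same transcript sequence and correlated at r = 0.93 over the 8 arrays, against 0.016 between 1369354_at and 1380582_at. They share their target and are not independent measurements of Csf1.

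Of 7 further colony stimulating factors and receptors, Csf2, Csf2ra and Csf2rb were tested and none passed with Ang II by limma in either arm, with 0 in siNTC and 1 in siGiver cells at an unadjusted p under 0.05. Csf2ra, a receptor subunit, was lower in siGiver cells by -0.33 ± 0.076 with PBS (adjusted p = 0.016) and -0.31 ± 0.076 with Ang II (adjusted p = 0.0158). The call with PBS was lost without siGiver PBS replicate 1 or either siNTC PBS array, and that with Ang II without siNTC Ang II replicate 2 or siGiver Ang II replicate 1. Csf1r, the Csf1 receptor gene, was below the filter with a mean of 4.06 log2, as were Il34, Csf3 and Csf3r.

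The genes whose values followed each member most closely were taken by Pearson r over the 8 arrays, among probe sets whose group means span at least 0.5 log2. For Il6 they were Klf2, Cebpb and Ccl7 (r = 0.990 each). For Tnf 1391384_at they were Ccl7 (0.993), Il6 (0.980) and Klf2 (0.980), and for Tnf 1387691_at Sema6d (0.806), Exoc3 (0.790) and Bcl7a (0.758). Csf1 1379631_at was followed by Washc4 (0.985), Naglu (0.980) and Uqcc6 (0.977), and 1369354_at by Baz2b (0.980), Slc25a27 (0.969) and Lztfl1 (0.964). Csf1 1380583_s_at was followed by Sbno2 (0.977), Rnf25 (0.972) and Mxd1 (0.966), and 1380582_at by Sbno2 (0.959), Tle4 (0.949) and Ccl4 (0.937). Socs3 was nearest to Usp43 (0.911), Smg5 (0.875) and Spsb1 (0.873), Lif to Homer1 (0.894), Stc1 (0.837) and Cflar (0.822), and Il11 to Lif (0.770), Sgms2 (0.768) and Fam210a (0.743). With 8 arrays in 4 groups such values rest on the order of the groups and carry no test.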

How the data were processed

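RNA for 8 arrays was labelled with biotin from 5 ug of total RNA by the one-cycle Affymetrix protocol, per the labels' protocols. The authors deposited log2 signals per probe set, and the submitters' processing notes name RMA (by its usual definition background correction, quantile normalization and 1 value per probe set) and Partek; their versions and settings are not given in the sources. Quantile normalization, where used, assumes a like distribution on every array. Arrays have no read depth, so their number, 2 per group, limits the precision. Arrays of a group correlated at 0.998, with SDs of the difference of 0.147 to 0.16 log2.

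Groups came from the titles. Probe sets were named through GEO's platform annotation, with 20758 of 20826 single symbols matched by gene ID. From 31042 probe sets, those with a mean under the 30th percentile (4.81 log2) were left out. A mean per group was fitted to the remaining 21729 with limma 3.58.1 in R 4.3.3 (4 residual and 3.40 prior degrees of freedom), with 5 comparisons planned and 1 added. In pathway lists the brightest probe set stood for a gene (11377 genes), and adjusted p-values stayed those over all probe sets. Up to 4 genes per list and comparison with the smallest adjusted p are named, plus Il6st, Il6r, Lifr, Il11ra1, Tnfrsf1a and Csf1r. Some values of these genes in other comparisons are also given. The members and lists were chosen with earlier results of these data known. The scripts were tested on simulated data. Alternatives were no filter, a 50th percentile filter, 1 probe set per gene, cyclic loess, array medians subtracted, trended and robust moderation, a replicate block, only the groups compared, any probe set of a list gene, and leaving out each array. Promoters are RefSeq's, build GRCr8.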

Additional observations from a re-analysis of the deposited data

Results flagged for a closer look

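The response to Ang II differed between the siRNA arms for 9 pathway genes that are not members, by the interaction in limma (siGiver minus siNTC, adjusted p under 0.05, where 2.17% of all genes were called higher and 1.74% lower). Clcf1 had an interaction of 1.11 ± 0.17, Junb 0.89 ± 0.11, Tnfaip6 0.78 ± 0.091, Tnfaip3 0.63 ± 0.069, Socs5 0.62 ± 0.084, Myc 0.61 ± 0.069, Zfp36 0.49 ± 0.078 and Tnfaip2 0.37 ± 0.075, and Pias3 was lower at -0.44 ± 0.073 (SE, 2 arrays per group). The calls of Pias3 and Tnfaip2 were lost when any 1 array was left out and without the filter, that of Tnfaip2 also with cyclic loess. That of Socs5 was lost without siNTC Ang II replicate 2 or either siNTC PBS array, and that of Zfp36 without the filter or without any 1 of 6 arrays, the exceptions being siNTC Ang II replicate 2 and siGiver Ang II replicate 1. The calls of Junb, Myc, Tnfaip3 and Tnfaip6 held without any 1 array.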

How the results depend on the processing

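No value of a member or named gene changed sign under a changed setting while called. Of 345 member values of the 5 planned comparisons under other settings, 333 kept their side of the threshold, 4 lost their call and 8 gained one, and of 400 with 1 array left out, 390 kept it, 8 lost it and 2 gained one. In the added comparison of siGiver Ang II with siNTC PBS, 38.7% of all probe sets were called. There Csf1 1379631_at (-0.29, adjusted p = 0.0109) and 1369354_at (-0.21, adjusted p = 0.0264) were lower. Il6 lost its call there without the filter, with the block and with only the groups compared. Csf1 1369354_at lost its call without the filter (adjusted p = 0.0549), with array medians subtracted (0.0589) and with only the groups compared (0.0672). Socs3 gained a call there with cyclic loess (adjusted p = 0.0469) and with array medians subtracted (0.048), and Lif with only the groups compared (0.0181). The probe sets called for Ang II in siNTC cells numbered 852, against 423 without the filter, 1529 with the 50th percentile filter, 2260 with trended, robust moderation and 444 with only the groups compared. For Ang II in siGiver cells they numbered 2764, against 1732 without the filter, 4352 with trended moderation and 1456 with only the groups compared. For the siRNA they numbered 6042 with PBS and 7751 with Ang II, against 3986 and 5037 with 1 probe set per gene, where fewer probe sets are tested. For the interaction they numbered 730, against 339 without the filter, 1269 with the 50th percentile filter and 1901 with trended moderation. Member probe sets called changed to 3 for the siRNA with Ang II without the filter. The 50th percentile filter removes Lif, Il11, Socs3 and both Tnf probe sets. With it, the member probe sets called became 3 for Ang II in siGiver cells and 2 for the siRNA with PBS. With trended moderation 4 were called for Ang II in each arm. With the brightest probe set per gene, which takes 1387691_at for Tnf, 1 was called for Ang II in each arm and 2 for the siRNA with each treatment. With 1 array left out, the calls ranged from 138 to 727 for Ang II in siNTC cells, 1038 to 2382 in siGiver cells, 3753 to 5849 for the siRNA with PBS and 207 to 520 for the interaction. Member calls then ranged from 2 to 3 for Ang II in siGiver cells, 2 to 4 for the siRNA with PBS and 3 to 5 with Ang II. Array medians or cyclic loess moved the median of all probe sets by under 0.03 log2. The cause of these changes was not tested where none is named.

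Arrays with the same replicate number did not deviate together (correlations of -0.135 to 0.0983), so the numbers name the arrays only. With a replicate block, 629, 2392, 5613 and 7400 probe sets were called in the simple comparisons and 451 for the interaction, and every member call of these 5 comparisons kept its side. With the block, calls of named genes were lost for Cflar (adjusted p = 0.0711) and Ccl2 (0.0517) with Ang II in siNTC cells. Calls were also lost for Cish (0.0507) and Tradd (0.0601) with Ang II in siGiver cells. For the siRNA with Ang II, those of Il6r (0.0604) and Ptpn6 (0.0607) were lost. So were those of Tnfaip2 (0.0789) for the interaction and Il6 in the added comparison (0.0698). With 2 arrays per group and 4 residual degrees of freedom, small differences could be missed, and how small depends on the SE of the probe set. Lif, with an SE of 0.22 log2, did not pass at 0.52 for Ang II in siGiver cells. Csf1 1369354_at, with an SE of 0.059, passed at -0.22 for the siRNA with Ang II.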
